A study of Mus musculus with 18 samples.

Results

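The transcripts of 10 cell surface genes used to recognise or sort adipocyte progenitors, Pdgfra, Pdgfrb, Dpp4, Pi16, Cd34, Ly6a, Thy1, Cd24a, Icam1 and Itgb1, were followed across the floating adipocytes and the stromal-vascular fraction (SVF) of mouse fat. They were chosen by name, through the gene symbol or an older synonym printed on the array, and not by their values. The 10 genes are among 19217 genes tested and were read by 17 of the 41174 probes, of which 16 passed the filter on dim probes, so that every gene kept at least 1 probe. The RNA came from male young adult C57BL/6 mice, with no further allele or treatment named, and each of 6 groups held 3 arrays, 18 in all, described as biological triplicates. The groups were the SVF and the adipocytes of interscapular brown fat, of inguinal white fat and of epididymal white fat. Per the labels' protocols, tissue was digested with collagenase, the adipocytes were taken from the top after a spin, and the pellet was freed of red cells and filtered to give the SVF. The SVF is therefore a mixture of progenitors, endothelial cells, mural cells and leukocytes, and in such bulk RNA fewer cells of a type and less RNA per cell cannot be told apart.

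Adipocyte progenitors are fibroblast-like cells of the fat stroma that divide and can turn into fat cells, and they are usually isolated by a set of surface proteins because no single protein is specific to them. The PDGF receptors Pdgfra and Pdgfrb are tyrosine kinases of mesenchymal cells, Dpp4 and Pi16 mark stromal cells of the interstitial sheets around fat lobules, and Icam1 has been used for progenitors more committed to the fat cell fate. Cd34, Ly6a (Sca-1), Thy1 (CD90), Cd24a and Itgb1 (CD29) are part of common sorting panels, and each of them is also found on other cells, such as endothelial cells or lymphocytes.

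A level is the log2 of an array's processed signal minus the 75th percentile of that array, so 0 is the 75th percentile itself and each unit is a factor of 2. A difference is the level in the first group named minus that in the second. A difference is called where the limma adjusted p, corrected over all 19217 genes, is under 0.05. The p-values measure the spread between these arrays. The 75th percentile itself lay between 338 and 1259 intensity units, and 49.6% to 72.3% of spots were well above background, apart from 87.9% on epididymal adipocyte replicate 1. The brown adipocyte arrays were dim, at 338, 475 and 440 units with 49.6%, 56.9% and 58.5% of spots well above background. Brown SVF had 797, 732 and 995 units with 67.2%, 72.2% and 69.2%. Inguinal adipocytes had 394, 1044 and 437 units and epididymal adipocytes 776, 900 and 416. The part of this dimness in the members' levels was not tested. The 6 mature adipocyte genes were called higher in the adipocytes of each of the 3 depots. Of 6 fibroblast genes, 6, 3 and 3 were called lower in brown, inguinal and epididymal adipocytes, so the called genes went the way of the fraction labels. The summed fibroblast signal overlapped between the inguinal fractions, at 504 to 957 times the 75th percentile in SVF and 161 to 646 in adipocytes. The library labelled inguinal SVF replicate 1 read the Y-linked Ddx3y at -6.50 against 0.18 to 1.65 on the other 17 arrays, which goes against its label as male, and its summed mesothelial marker signal was 126 times the 75th percentile against 0.317 and 0.195 in its 2 sister arrays. Epididymal adipocyte replicate 3 read the brown fat gene Ucp1 at 4.51 against -3.34 and -1.05 in its sisters. All 6 white adipocyte arrays were read with an earlier version of the scanner software and on slides of their own, so in the white depots the fraction, and between brown and white adipocytes the depot, cannot be told apart from that batch. The inguinal and epididymal adipocyte arrays shared no slide and no scan day, so between them the depot cannot be told apart from slide or day. The brown SVF and brown adipocyte arrays shared slides.

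**Figure D1:**
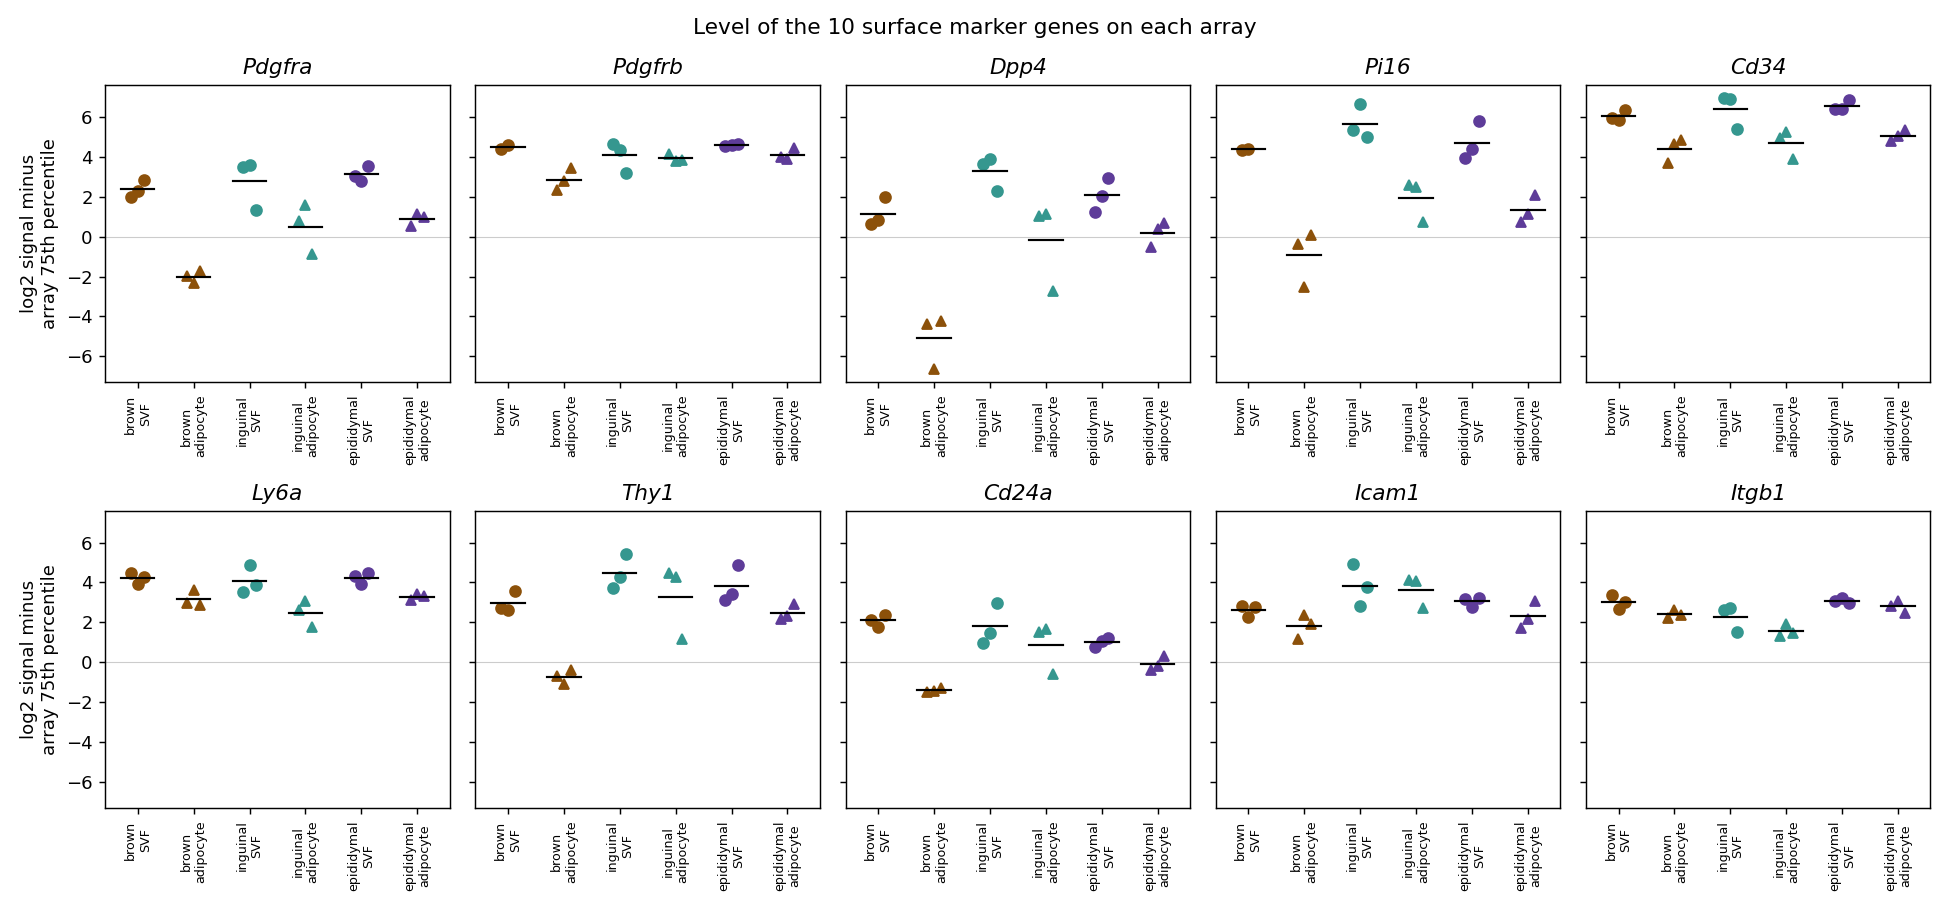
Level (log2 signal minus the array's 75th percentile, vertical axis) of the 10 genes on each of the 18 arrays, with circles for SVF, triangles for adipocytes and a black line at the mean of each group of 3 (of 2 for Pdgfrb and Pi16 in brown SVF). In brown fat the triangles of 9 of the 10 genes lie below all circles, where this held for 17.1% of all genes, and Icam1 is the exception.

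Several of the progenitor transcripts were lower in the adipocyte fraction than in the SVF of each depot, and brown fat had more calls than either white depot. In brown fat 7 of 10 genes were called lower in adipocytes than in SVF (Pdgfra, Pdgfrb, Dpp4, Pi16, Cd34, Thy1 and Cd24a) and none higher, where 8.35% of all genes were called lower and 12.7% higher. In inguinal fat 5 of 10 were called lower (Pdgfra, Dpp4, Pi16, Cd34 and Ly6a) and none higher, against 4.81% and 9.16% of all genes. In epididymal fat 3 of 10 were called lower (Pdgfra, Pi16 and Cd34) and none higher, against 6.91% and 18.1%. The median difference of the 10 genes was -2.58, -1.39 and -1.21 in the 3 depots in this order, where the median over all genes was 0.15, 0.01 and 0.07. Pdgfra, Pi16 and Cd34 were thus called in all 3 depots, whereas Icam1 and Itgb1 were called in none. In brown fat all 10 differences were below 0 within the slide that held 2 arrays of each fraction, and so were the 8 that could be read within the slide that held 1 of each. In the same fat, 5 of 6 macrophage genes (sums of 16.9 to 31.0 times the 75th percentile in brown SVF and 1.02 to 3.22 in brown adipocytes), 3 of 4 mast cell genes (3.07 to 10.6 and 0.677 to 0.915) and 2 of 3 Schwann cell genes (1.23 to 2.66 and 0.51 to 0.78) were also called lower. The mature adipocyte sum was 525 on brown SVF replicate 2 against 65.8 and 82.5 on its sister arrays, and the part of these cells in the members' levels was not tested. Without brown SVF replicate 2 the members' count was 6.

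The inguinal count was 2 without the library labelled inguinal SVF replicate 1, 2 without inguinal SVF replicate 2 and 1 without inguinal adipocyte replicate 3, and 0 when the 6 inguinal arrays were fitted alone. The epididymal count was 1 without epididymal SVF replicate 3, 1 without epididymal adipocyte replicate 1, 5 without inguinal adipocyte replicate 3 (which enters through the shared spread), and 6 when the 6 epididymal arrays were fitted alone. Such fits can also change the number of all genes called, which is not reported here for these inguinal and epididymal counts. In epididymal fat the arrays with the same replicate number deviated from their group means together (r = 0.424, 0.482 and 0.138). With that number as a block within epididymal fat the count was 3 over all 18 arrays and 7 when the 6 epididymal arrays were fitted alone, where Dpp4 (-1.90, adjusted p = 0.0062), Cd24a (-1.09, 0.0159), Thy1 (-1.33, 0.0225) and Ly6a (-0.95, 0.0366) joined Pdgfra, Pi16 and Cd34; that last fit called 2334 of all 19217 genes lower and 4389 higher.

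**Figure D2:**
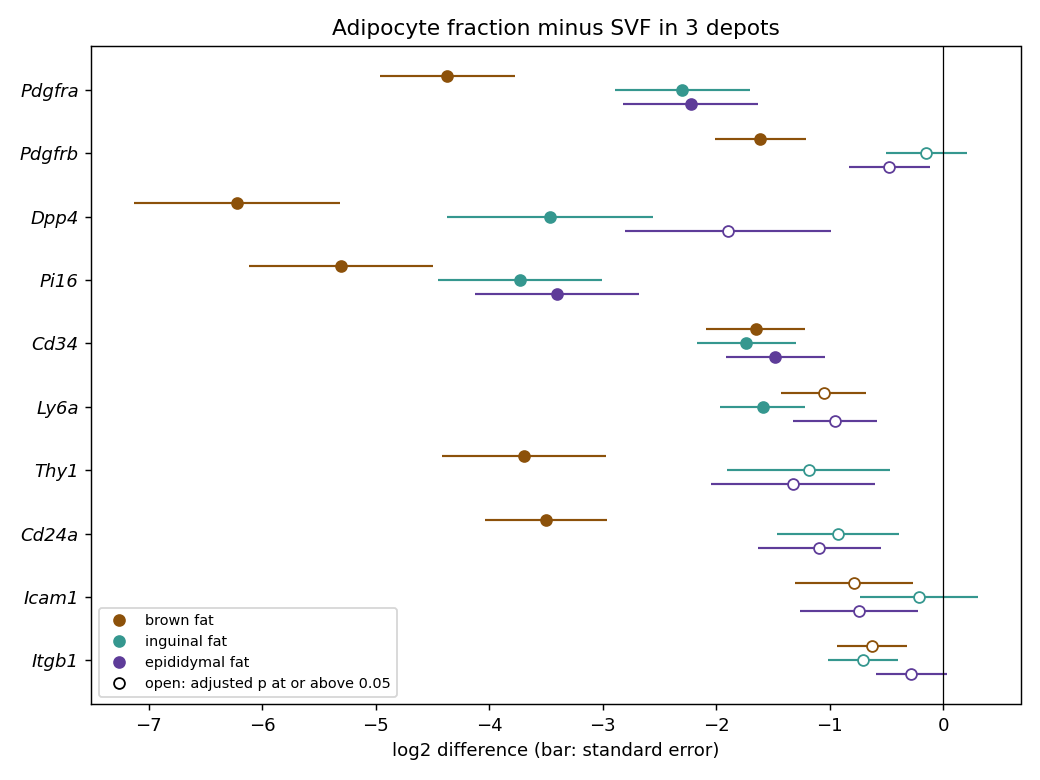
Adipocyte minus SVF difference (log2, horizontal axis) of each gene in brown, inguinal and epididymal fat, with the standard error as a bar, filled points for adjusted p under 0.05 and open points otherwise. All 30 points lie below 0 (a second Itgb1 probe, not drawn, lies above 0 in the white depots), and the brown point of Dpp4 rests on adipocyte arrays of which 1 of 3 was well above background, so its place marks a bound and not a measured size.

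Of the receptors, Pdgfra, which binds PDGF-A, -B and -C chains and is the most used marker of adipose progenitors, was read by a probe at chr5:75479560-75479619 of mouse build mm8. In the SVF it stood at 1.99, 2.29 and 2.82 in brown fat, 3.48, 3.60 and 1.32 in inguinal fat and 3.01, 2.81 and 3.53 in epididymal fat. In adipocytes it stood at -1.96, -2.32 and -1.73, at 0.80, 1.57 and -0.86, and at 0.55, 1.13 and 0.99. The brown adipocytes lay below all other arrays, the SVF and adipocyte arrays did not overlap in brown or epididymal fat, and in inguinal fat they overlapped, SVF replicate 3 lying below adipocyte replicate 2. The brown difference was -4.37 ± 0.59 (SE, adjusted p = 0.000271), the inguinal one -2.30 ± 0.59 (0.0198) and the epididymal one -2.23 ± 0.59 (0.0142), or 20.7-fold, 4.92-fold and 4.68-fold. A dimmer second probe was well above background on 0 of 3 brown adipocyte arrays, which bounds the brown drop there at 2.28-fold or more. It gave -1.43 in inguinal fat, not called (adjusted p = 0.0876), and -1.73 in epididymal fat.

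Pdgfrb, the receptor for PDGF-B and -D and a marker of pericytes as well as of progenitors, dropped in brown fat. It stood at 4.37 and 4.57 in brown SVF, with no value on the third array because its spot was flagged, at 4.65, 4.34 and 3.20 in inguinal SVF and at 4.53, 4.57 and 4.66 in epididymal SVF. In adipocytes it stood at 2.31, 2.80 and 3.46 in brown, 4.13, 3.76 and 3.84 in inguinal and 3.98, 3.91 and 4.44 in epididymal fat. Brown adipocytes overlapped no other group except for the low inguinal SVF replicate 3, and the inguinal adipocytes lay within the range of inguinal SVF. The drop was called in brown fat, at -1.61 ± 0.40 (SE, adjusted p = 0.0104), against -0.15 ± 0.36 (0.809) for the inguinal and -0.48 ± 0.36 (0.354) for the epididymal fractions. The differences between these drops were not called (adjusted p = 0.246 for brown against inguinal and 0.246 for brown against epididymal). Of 6 mural marker genes, which pericytes and smooth muscle cells express, 3 were called lower in brown adipocytes than in brown SVF, while 2 were called higher in inguinal and 1 in epididymal adipocytes; their summed signal ran from 163 to 203 times the 75th percentile in brown SVF and from 39.1 to 54.4 in brown adipocytes, from 24.1 to 39.7 and from 59.3 to 80.8 in inguinal SVF and adipocytes, and from 43.2 to 65.6 and from 53.8 to 140 in epididymal SVF and adipocytes. The part of mural cells in the Pdgfrb level was not tested.

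Of the 4 PDGF ligand genes, 1 was called lower in brown adipocytes, 0 in inguinal (1 at an unadjusted p under 0.05) and 1 in epididymal adipocytes against SVF, and none was called higher. Pdgfa, a ligand of Pdgfra, was the gene called in brown fat (-1.14, adjusted p = 0.0142), and Pdgfd, a ligand of Pdgfrb, the one in epididymal fat (-1.03, 0.0315). Pdgfc was called lower in brown than in inguinal adipocytes (-1.65, 0.0408) and epididymal adipocytes (-1.50, 0.0336).

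Dpp4, a membrane serine peptidase that trims dipeptides from chemokines and incretins, was not well above background in most brown adipocyte arrays. In the SVF it stood at 0.62, 0.84 and 2.00 in brown, 3.65, 3.89 and 2.27 in inguinal and 1.24, 2.02 and 2.94 in epididymal fat. In adipocytes it stood at -4.39, -6.61 and -4.20 in brown, 1.01, 1.13 and -2.72 in inguinal and -0.53, 0.36 and 0.69 in epididymal fat. Brown adipocytes lay below all other arrays and were well above background on only 1 of 3 arrays, whereas inguinal adipocyte replicate 3 lay between them and its 2 sister arrays. The brown drop was -6.22 ± 0.91 (SE, adjusted p = 0.000362). With the brown adipocyte arrays held at or above a floor, it was at least 36.0-fold. The floor is the dimmest signal well above background on an array and not a limit for each probe. The bounds given for Dpp4 and for the dim probes of other members are therefore approximate. The inguinal drop was -3.46 ± 0.91 (0.0215) and the epididymal one -1.90 ± 0.91 (0.141). The epididymal fractions did not overlap, which held for 49.2% of all genes, 22.6% of them with adipocytes below SVF as a share of all genes.

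Dpp4 had 3 kept probes, which overlap or lie far apart in the gene. The brightest, A_51_P467110, and A_52_P443578 lie side by side at chr2:62132844-62132903 and chr2:62132884-62132943 of mm8, minus strand, and share the 20 bases shown first below. The third, A_52_P417368, covers 2067 genomic bases with 60 letters at chr2:62155418-62157484 and so spans a splice junction; it is shown whole because it alone gave another picture in brown fat. The 2 sequences, read from the array files, are as follows.
Shared by both bright Dpp4 probes: caaagcactgacttctaagt
Dpp4 junction probe: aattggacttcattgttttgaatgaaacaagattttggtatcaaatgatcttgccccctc
The second bright probe was well above background on 0 of 3 brown adipocyte arrays, which bounds its brown drop at 16.3-fold or more. It gave -3.45 in inguinal and -2.07 in epididymal fat, both called, the latter with adjusted p = 0.0417. The junction probe gave -0.99 (adjusted p = 0.347), -2.41 (0.0303) and -1.99 (0.0449). It was well above background on 0 of 3 brown adipocyte arrays and on 11 of 18 arrays in all, and its level in brown SVF was already low, so that no fold could be bounded there.

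**Figure D3:**
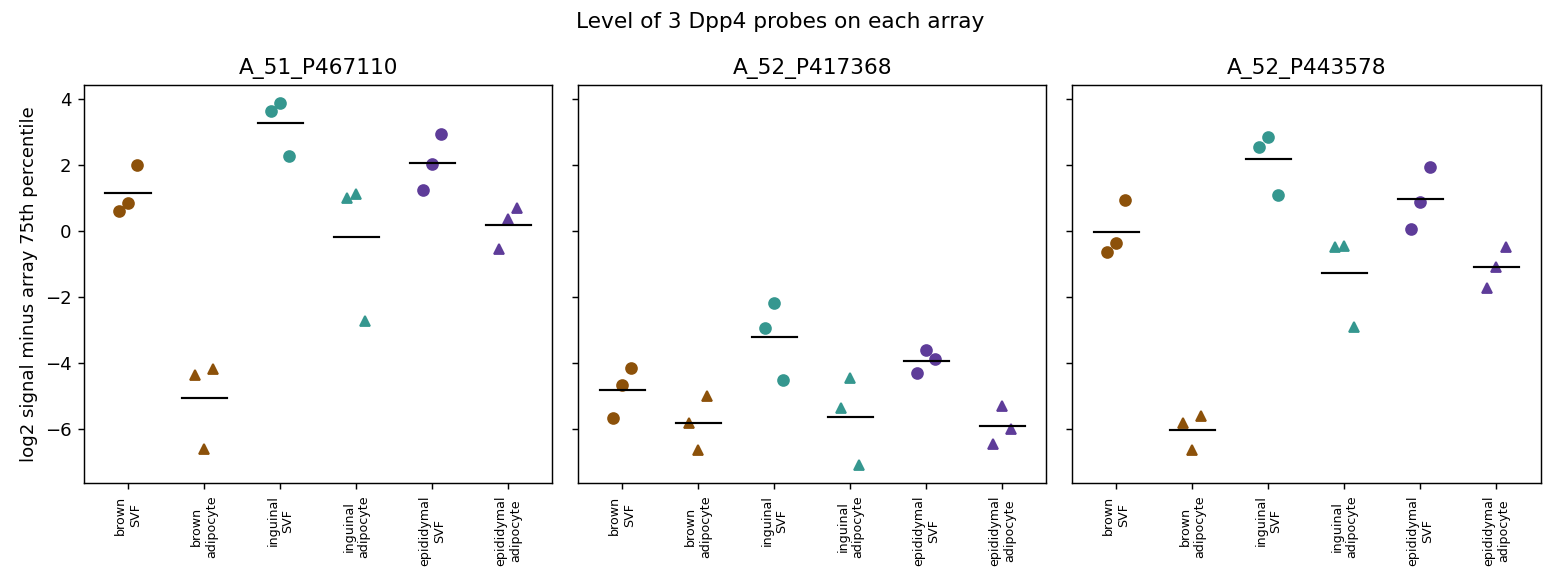
Level (log2 signal minus the 75th percentile) of the 3 Dpp4 probes on each array, with circles for SVF, triangles for adipocytes and a line at the mean of each group of 3. The outer panels run alike, with brown adipocytes lowest, and the highest group mean of the junction probe in the middle panel is -3.23, in inguinal SVF.

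Of 5 tested relatives of Dpp4, 1, 1 and 2 were called lower and 0, 0 and 1 higher in brown, inguinal and epididymal adipocytes against SVF. Fap, a fibroblast peptidase, was called lower in adipocytes than in SVF in each depot, at -2.94 in brown (adjusted p = 0.000972), -1.69 in inguinal (0.0378) and -1.84 in epididymal fat (0.0162). In epididymal fat Dpp6, which has no peptidase activity, was called higher in adipocytes (1.97, 0.0141) and Dpp8, a cytosolic peptidase, lower (-0.91, 0.0131).

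Pi16, a peptidase inhibitor family protein that marks interstitial fibroblasts, was read by 1 probe at chr17:29055673-29055732 of mm8. In the SVF it stood at 4.34 and 4.40 in brown fat, with the third spot flagged, at 5.34, 6.65 and 4.97 in inguinal and at 3.94, 4.41 and 5.78 in epididymal fat. In adipocytes it stood at -0.36, -2.52 and 0.08 in brown, 2.57, 2.50 and 0.72 in inguinal and 0.72, 1.11 and 2.10 in epididymal fat. No adipocyte array reached any SVF array, and brown adipocytes lay below the white ones. The drops were -5.30 ± 0.81 (SE, adjusted p = 0.00055), -3.73 ± 0.72 (0.00515) and -3.40 ± 0.72 (0.00519), or 39.5-fold, 13.2-fold and 10.6-fold. With the inguinal arrays fitted alone the adjusted p was 0.0501.

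Of 5 tested genes listed for the same interstitial progenitor state, 3 were called lower in brown adipocytes than in SVF, 3 in inguinal and 1 in epididymal fat, and none was called higher. In brown fat Wnt2, a secreted Wnt ligand, differed by -5.51 (adjusted p = 0.000525), Bmp7, a BMP ligand, by -4.45 (0.00128) and Sema3c, a secreted semaphorin, by -3.23 (0.00878). Bmp7 was also called in inguinal (-2.82, 0.0301) and epididymal fat (-2.89, 0.0167), and inguinal fat added Wnt2 (-2.82, 0.0416) and Anxa3 (-1.76, 0.00854). The 6 genes of the committed preadipocyte list went the other way where they were called. Fabp4, a fatty acid carrier, was called higher in adipocytes of brown (1.09, 0.035), inguinal (1.13, 0.0405) and epididymal fat (1.07, 0.0335), and Pparg and Cd36 were called higher in inguinal adipocytes (1.65, 0.0322, and 1.07, 0.034). These 3 genes are also abundant in mature fat cells. Of 6 genes of the F3-positive stromal list, Gdf10, a BMP family ligand, was called lower in all 3 depots, at -5.84, -2.48 and -3.68 (adjusted p = 9.47e-05, 0.0211 and 0.00206). Clec11a was called lower in brown (-2.03, 0.017) and epididymal fat (-2.16, 0.0122), and Abcg1, a sterol exporter also found in other cells, was called higher in epididymal adipocytes (2.42, 0.00384).

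Upstream sequence was listed for 6 of the 10 genes, and 4 of these stretches are printed to set 3 genes called lower in brown and inguinal adipocytes (Dpp4, Pdgfra, Pi16) beside one that was not called in any depot (Itgb1). Each runs over the 250 bases before the start of the gene in RefSeq, build GRCm38.p6, 5′ to 3′ along the gene's strand, at chr2:62412232-62412481, minus strand, chr5:75152001-75152250, plus strand, chr17:29318632-29318881, plus strand, and chr8:128685404-128685653, plus strand. Capitals mark the dinucleotide CG.
Dpp4: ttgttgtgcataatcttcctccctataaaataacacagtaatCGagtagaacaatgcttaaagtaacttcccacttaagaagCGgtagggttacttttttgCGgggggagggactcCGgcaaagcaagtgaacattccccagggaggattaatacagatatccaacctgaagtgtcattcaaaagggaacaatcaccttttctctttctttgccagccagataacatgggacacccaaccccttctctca
Pdgfra: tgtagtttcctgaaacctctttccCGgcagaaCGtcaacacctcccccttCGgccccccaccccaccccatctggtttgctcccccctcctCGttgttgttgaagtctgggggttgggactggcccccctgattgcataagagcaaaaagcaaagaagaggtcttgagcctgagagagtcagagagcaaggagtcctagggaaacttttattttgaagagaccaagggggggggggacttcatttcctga
Pi16: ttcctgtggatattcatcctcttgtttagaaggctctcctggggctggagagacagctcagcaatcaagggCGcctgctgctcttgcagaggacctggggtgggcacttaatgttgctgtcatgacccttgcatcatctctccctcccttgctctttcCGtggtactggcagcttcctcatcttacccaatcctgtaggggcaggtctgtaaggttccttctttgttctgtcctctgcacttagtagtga
Itgb1: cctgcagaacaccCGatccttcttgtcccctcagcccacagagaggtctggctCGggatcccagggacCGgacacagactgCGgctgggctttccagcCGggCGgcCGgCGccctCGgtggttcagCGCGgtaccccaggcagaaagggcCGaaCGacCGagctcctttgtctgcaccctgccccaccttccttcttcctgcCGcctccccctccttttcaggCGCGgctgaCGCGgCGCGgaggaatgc
Dpp4, Pdgfra and Pi16 hold 4, 4 and 2 CG pairs, Cd34 6, Icam1 15 and Itgb1 21, where the median over 32851 such stretches is 6, the quartiles are 2 and 16, and 92.1% of stretches hold at least 1. The shares of stretches with at most as many as these genes are 44.4%, 44.4%, 29.0%, 53.7%, 74.6% and 85.2%. The letters TATAAA, searched on both strands, were found in Dpp4 alone, 227 bases before the start (in 12.4% of all stretches), CCAAT in Pi16, 64 bases before (33.8%), and GGGCGG in Itgb1, 151 before, and in Icam1, 17 before (32.7%). These are letter matches and no measure of a factor or of methylation.

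Cd34, a sialomucin of progenitors and of endothelial cells, was called lower in the adipocytes of each depot. In the SVF it stood at 5.94, 5.86 and 6.35 in brown, 6.92, 6.91 and 5.40 in inguinal and 6.37, 6.39 and 6.82 in epididymal fat, and in adipocytes at 3.70, 4.65 and 4.83, at 4.91, 5.23 and 3.88, and at 4.77, 5.03 and 5.34. No adipocyte array reached any SVF array, and the 3 adipocyte groups overlapped one another. The drops were -1.65 ± 0.44 (SE, adjusted p = 0.0135), -1.74 ± 0.44 (0.0171) and -1.48 ± 0.44 (0.0226), and the differences between these drops were 0.08, -0.17 and -0.26 with a standard error of 0.62 (adjusted p = 0.899 to 0.973). With the slide as a random block the epididymal value was -1.40 and no longer called (adjusted p = 0.0515), and it was not called either without epididymal SVF replicate 2 (0.0556), SVF replicate 3 (0.0787) or adipocyte replicate 1 (0.0906). Of 6 endothelial marker genes, 1 was called lower in brown adipocytes and 0 between the fractions of each white depot, where 0 also passed at an unadjusted p under 0.05. Their summed signal ran from 101 to 200 times the 75th percentile in brown SVF and from 91.8 to 136 in brown adipocytes, from 37.9 to 84.2 and from 50.3 to 54.5 in inguinal fat, and from 53.1 to 112 and from 73.4 to 83.1 in epididymal fat. Of the 2 Cd34 relatives, Podxl2 was called lower in inguinal adipocytes than in SVF (-2.18, 0.0187), and neither was called in brown or epididymal fat (1 and 0 at an unadjusted p under 0.05).

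The GPI-anchored proteins split. Ly6a (Sca-1), which marks progenitors and also endothelial cells, stood at 4.46, 3.90 and 4.27 in brown SVF, 3.51, 4.86 and 3.89 in inguinal SVF and 4.33, 3.92 and 4.47 in epididymal SVF. In adipocytes it stood at 2.96, 3.61 and 2.89 in brown, 2.62, 3.08 and 1.77 in inguinal and 3.13, 3.43 and 3.30 in epididymal fat. All SVF arrays lay above all adipocyte arrays except that brown adipocyte replicate 2, at 3.61, exceeded inguinal SVF replicate 1, at 3.51. The drop was called in inguinal fat at -1.59 ± 0.37 (SE, adjusted p = 0.0123) and just missed the threshold in brown (-1.06 ± 0.37, 0.0564) and epididymal fat (-0.95 ± 0.37, 0.0728). The brown value passed under quantile normalization (-1.44, 0.0228) and in the authors' matrix (-1.41, 0.0214). With the shared slides or scan days modelled it passed with slide as a random block (adjusted p = 0.0393) and with scan day as a fixed (0.0495) or random block (0.0401). It did not pass with slide as a fixed block. Ly6a has close relatives in the genome, and hybridisation of their transcripts to its single probe was not tested. Of the 3 relatives tested, Ly6e was called lower in inguinal adipocytes than in SVF (-1.24, 0.0354) and none was called between the fractions of brown or epididymal fat (0 and 1 at an unadjusted p under 0.05).

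Thy1 (CD90), found on fibroblasts and on T cells, and Cd24a, found on early progenitors and on B cells and neutrophils, fell in brown fat and scattered in inguinal fat. Thy1 stood at 2.71, 2.64 and 3.55 in brown SVF, 3.74, 4.26 and 5.45 in inguinal SVF and 3.12, 3.42 and 4.86 in epididymal SVF, and at -0.70, -1.09 and -0.39, at 4.45, 4.27 and 1.17, and at 2.17, 2.33 and 2.91 in the respective adipocytes. Cd24a stood at 2.14, 1.79 and 2.38 in brown SVF, 0.98, 1.47 and 2.97 in inguinal SVF and 0.75, 1.06 and 1.21 in epididymal SVF, and at -1.48, -1.44 and -1.27, at 1.54, 1.69 and -0.59, and at -0.40, -0.17 and 0.31 in adipocytes. For both genes brown adipocytes lay below all other arrays, and inguinal adipocyte replicates 1 and 2 were as high as SVF while replicate 3 was low. In brown fat the drops were -3.70 ± 0.72 (SE, adjusted p = 0.0023) for Thy1 and -3.50 ± 0.54 (0.000495) for Cd24a, or 13.0-fold and 11.3-fold. In inguinal fat they were -1.19 ± 0.72 (0.284) and -0.93 ± 0.54 (0.264), and in epididymal fat -1.33 ± 0.72 (0.193) and -1.09 ± 0.54 (0.152). The second Thy1 probe was well above background on 0 of 3 brown adipocyte arrays, which bounds its brown drop at 4.01-fold or more, and gave -0.86 and -0.85 in inguinal and epididymal fat.

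The lymphocyte marker sums differed between arrays of the inguinal groups, although 0 of 6 T and NK cell genes and 0 of 4 B cell genes were called between the inguinal fractions (0 of either at an unadjusted p under 0.05). The summed signal of 6 T and NK cell genes was 32.7 times the 75th percentile on inguinal SVF replicate 3 against 1.59 and 4.34 on its sister arrays, and 9.70 and 9.77 on inguinal adipocyte replicates 1 and 2 against 1.03 on replicate 3. The summed signal of 4 B cell genes was 125 on inguinal SVF replicate 3 against 2.10 and 19.3, and 29.5 and 22.5 on inguinal adipocyte replicates 1 and 2 against 0.663 on replicate 3. Over the other depots the T and NK cell sum lay between 1.46 and 4.33 in SVF and between 0.289 and 1.73 in adipocytes, and the B cell sum between 2.14 and 4.57 and between 0.665 and 3.04. In brown adipocytes against brown SVF, 2 of 6 T and NK cell genes and 0 of 4 B cell genes were called lower (0 of the latter at an unadjusted p under 0.05). Of 4 neutrophil genes 3 were called lower there, with sums of 20.8 to 42.1 in brown SVF and 0.271 to 2.1 in brown adipocytes. The highest values of Thy1 and Cd24a were on the array with the highest lymphocyte sums. Within inguinal SVF, Thy1 rose in the order of the T and NK cell sum and Cd24a in that of the B cell sum. Inguinal adipocyte replicate 3 was the lowest of its group for both genes and both sums. Across depots the order differed for both genes. Inguinal SVF replicate 1 read Thy1 at 3.74 with a T and NK cell sum of 1.59, while brown SVF replicate 3 read it at 3.55 with 4.33. Inguinal SVF replicate 2 read Cd24a at 1.47 with a B cell sum of 19.3, while the 3 brown SVF arrays read it at 1.79 to 2.38 with sums of 2.14 to 4.57. The part of lymphocytes and neutrophils in these levels was not tested.

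**Figure D4:**
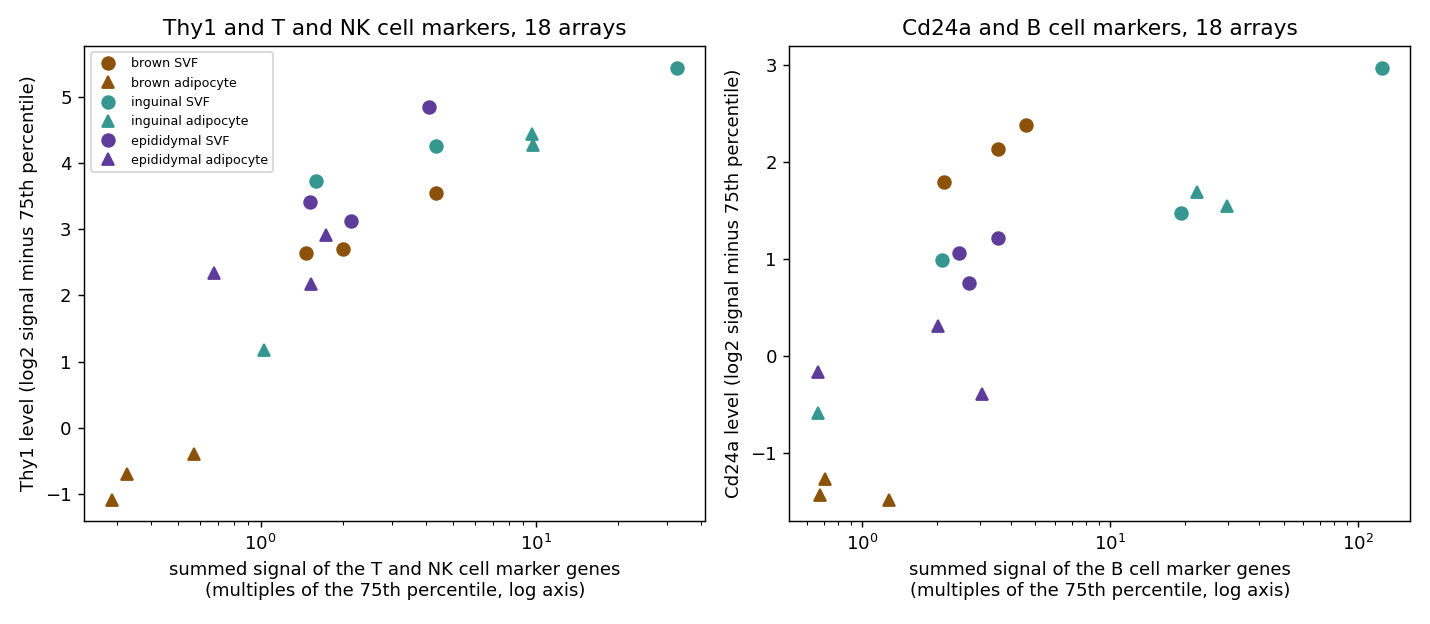
Thy1 level against the summed signal of 6 T and NK cell marker genes (left) and Cd24a level against that of 4 B cell marker genes (right) on the 18 arrays, with the sums in multiples of the 75th percentile on a log axis. Inguinal SVF replicate 3 sits at the upper right of both panels, at sums of 32.7 and 125, and the brown adipocytes sit at the lower left.

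The adhesion molecules Icam1 and Itgb1 were called between the fractions of no depot. Icam1, a ligand of leukocyte integrins, stood at 2.80, 2.26 and 2.79 in brown SVF, 4.95, 2.82 and 3.75 in inguinal SVF and 3.19, 2.78 and 3.23 in epididymal SVF, and at 1.19, 2.38 and 1.94, at 4.12, 4.06 and 2.71, and at 1.72, 2.17 and 3.07 in adipocytes. No pair of neighbouring groups in its order was free of overlap. The differences were -0.78 ± 0.52 (SE, adjusted p = 0.33), -0.21 ± 0.52 (0.816) and -0.74 ± 0.52 (0.318), although a second probe gave -1.48 in epididymal fat with an adjusted p of 0.0373. Of 4 Icam1 counter-receptor genes, Itgal and Itgam were called lower in brown adipocytes than in SVF (-3.25, 0.034, and -2.50, 0.0446), and none was called between the fractions of inguinal or epididymal fat (0 and 1 at an unadjusted p under 0.05).

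Itgb1, the beta chain shared by many matrix-binding integrins, stood at 3.37, 2.68 and 3.02 in brown SVF, 2.60, 2.70 and 1.50 in inguinal SVF and 3.07, 3.20 and 2.99 in epididymal SVF, and at 2.21, 2.63 and 2.36, at 1.32, 1.91 and 1.46, and at 2.84, 3.09 and 2.49 in adipocytes. The inguinal groups were lowest and every neighbouring pair of groups overlapped. The differences between fractions were -0.63 ± 0.31 (SE, adjusted p = 0.181), -0.71 ± 0.31 (0.141) and -0.28 ± 0.31 (0.544). In the authors' matrix the brown value was -0.95 with an adjusted p of 0.0398. A second Itgb1 probe turned the sign in inguinal (0.85, 0.364) and epididymal fat (0.21, 0.828), so no direction can be given there. Of 11 tested alpha chains, the partners that give integrins their ligand specificity, 5 were called lower in brown adipocytes than in SVF and none higher, led by Itga8 (-5.62, 1.35e-05), Itga11 (-5.18, 0.000191) and Itga9 (-3.26, 5.08e-05). In inguinal and epididymal fat Itga11 (-2.12, 0.0456, and -2.63, 0.0108) and Itga9 (-1.30, 0.0211, and -1.37, 0.00987) were again called lower, while Itga7, a laminin-binding chain, was called higher in adipocytes (2.17, 0.00906, and 1.81, 0.0136).

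Between the SVF of the 3 depots none of the 10 genes was called by limma. For brown minus inguinal SVF 1.9% of all genes were called higher and 0.479% lower, for brown minus epididymal SVF 1.06% and 0.723%, and for inguinal minus epididymal SVF 0.0572% and 0.239%. At an unadjusted p under 0.05 the numbers of members were 3, 0 and 1. The largest difference was that of Dpp4, at -2.12 ± 0.91 (SE) for brown minus inguinal SVF, with an adjusted p of 0.253. Its arrays did not overlap there, as for 18.5% of all genes. Thy1 differed by -1.52 between the same groups (adjusted p = 0.305). It was called where slides (-2.07, 0.0208) or scan days (-1.52, 0.0201) entered the limma fit as fixed terms, but not where they entered as random ones. Brown and inguinal SVF shared only 1 slide, with 1 array of each, and Thy1 differed by -1.90 there. The inguinal array on that slide was SVF replicate 3, with the highest Thy1 level (5.45) and T and NK cell sum (32.7) of the inguinal SVF arrays. With standard errors such as that of Dpp4, differences of several-fold were not detectable between SVF groups for the most variable members.

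The adipocyte fractions did differ between depots. Brown adipocytes were called lower than inguinal adipocytes for 6 of 10 genes and higher for none, where 5.84% of all genes were called lower and 6.33% higher. These were Dpp4 (-4.87 ± 0.91, SE, adjusted p = 0.00436), Thy1 (-4.02 ± 0.72, 0.00345), Pi16 (-2.86 ± 0.72, 0.0215), Pdgfra (-2.50 ± 0.59, 0.0146), Cd24a (-2.28 ± 0.54, 0.0144) and Icam1 (-1.80 ± 0.52, 0.0364). Brown adipocytes were called lower than epididymal adipocytes for 5 of 10 and higher for none, against 16.5% and 12.3% of all genes. These were Dpp4 (-5.24 ± 0.91, 0.0012), Thy1 (-3.20 ± 0.72, 0.00551), Pdgfra (-2.89 ± 0.59, 0.00329), Pi16 (-2.24 ± 0.72, 0.0334) and Pdgfrb (-1.25 ± 0.36, 0.0192). With brown adipocytes held at their floor, Dpp4 was at least 14.1-fold lower than in inguinal and at least 18.2-fold lower than in epididymal adipocytes. The 2 comparisons share the brown arrays. The Icam1 value rested on its brighter probe, since the other gave -1.26 with an adjusted p of 0.103, and the call was lost in 10 of 31 alternatives, among them slide (0.0606) and scan day (0.0629) as random blocks. The Pi16 call against epididymal adipocytes was lost in 7 of 28, among them the same blocks (0.0699 and 0.0679). The first count was 2 without inguinal adipocyte replicate 1 and 2 without replicate 2, and the second was 3 without epididymal adipocyte replicate 3.

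**Figure D5:**
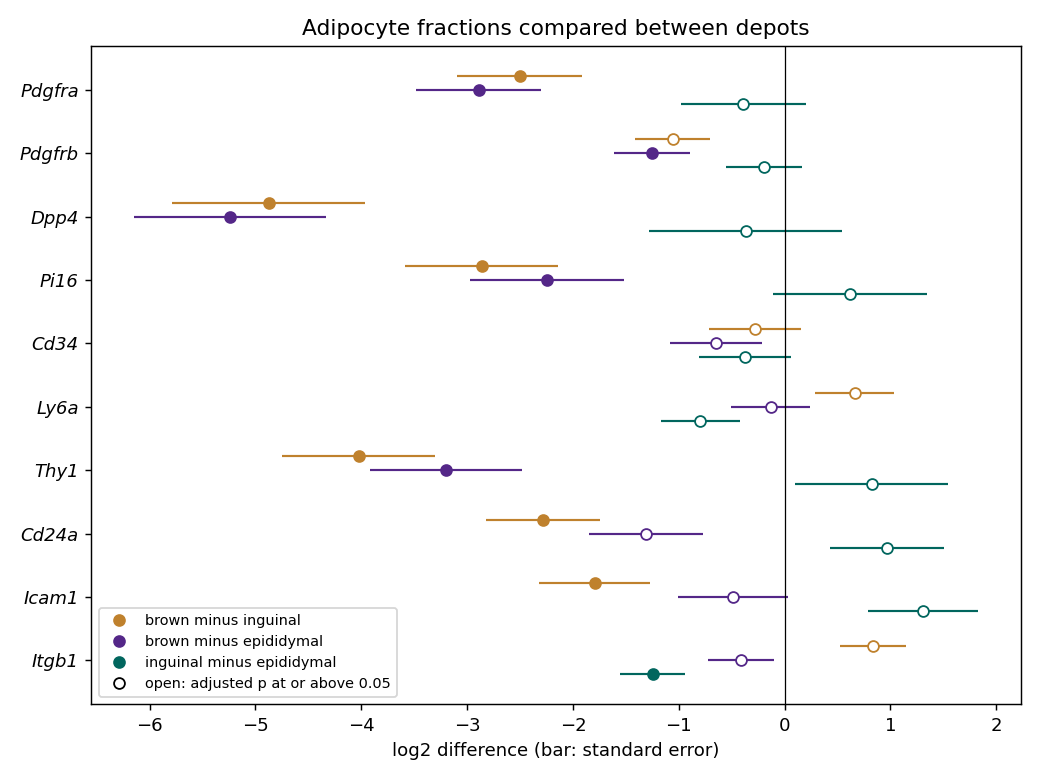
Differences between the adipocyte fractions of 3 depots (log2, horizontal axis) for each gene, with the standard error as a bar, filled points for adjusted p under 0.05 and open points otherwise. Dpp4, Thy1, Pi16 and Pdgfra lie well to the left for both comparisons of brown with white adipocytes, whereas Cd34 and Ly6a lie near 0.

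Cd34 and Ly6a were not called in either of these comparisons, at -0.28 ± 0.44 and 0.66 ± 0.37 against inguinal and -0.65 ± 0.44 and -0.13 ± 0.37 against epididymal adipocytes (SE). Itgb1 was the 1 gene called between the white adipocyte fractions, at -1.25 ± 0.31 (SE, adjusted p = 0.0287) for inguinal minus epididymal, where 6.83% of all genes were called lower and 0.879% higher. Its second probe gave -0.32 (adjusted p = 0.79), and the call was lost without each of inguinal adipocyte replicate 1 and epididymal adipocyte replicates 1, 2 and 3, while 4 members were called without inguinal adipocyte replicate 3. The white adipocyte groups shared no slide or scan day. Marker lists of other cells were read in the same comparisons. Of the 6 fibroblast genes, 6 and 5 were called lower in brown than in inguinal and epididymal adipocytes, and their summed signal ran from 51.8 to 71.4 times the 75th percentile in brown, from 161 to 646 in inguinal and from 238 to 359 in epididymal adipocytes. Of the 6 macrophage genes 5 and 6 were called lower, with sums of 1.02 to 3.22, 6.52 to 32.8 and 11.8 to 28.1. Of 6 T and NK cell genes 3 and 1 were called lower, of 4 neutrophil genes 1 and 1, of 4 mast cell genes 2 and 2, and of 4 B cell genes 0 and 0 (1 and 0 at an unadjusted p under 0.05). Of 6 endothelial genes 1 was called higher and 1 lower in each comparison (5 and 2 at an unadjusted p under 0.05). Their median difference was 1.07 and 0.61, with sums of 91.8 to 136 in brown, 50.3 to 54.5 in inguinal and 73.4 to 83.1 in epididymal adipocytes. Inguinal adipocyte replicate 3, the lowest of its group for Pdgfra, Dpp4, Pi16, Cd34, Ly6a, Thy1, Cd24a and Icam1, also had the lowest fibroblast and macrophage sums of its group. The part of carried-over stromal cells in the adipocyte levels was not tested.

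Whether the drop itself differed between depots was tested with the difference of the fraction differences, and no member was called by limma. For brown minus inguinal fat 0.729% of all genes were called lower and 0.13% higher, for brown minus epididymal fat 1.49% and 0.531%, and for inguinal minus epididymal fat 0.0624% and 0.0156%. At an unadjusted p under 0.05 the numbers of members were 5, 4 and 0. The largest values were those of Dpp4, whose brown drop exceeded the epididymal one by 4.33 (-4.33 ± 1.29, SE, adjusted p = 0.0901), and of Cd24a, at -2.57 ± 0.76 (0.143) against inguinal and -2.41 ± 0.76 (0.104) against epididymal fat. The larger drop in brown fat thus did not pass the threshold at this number of arrays. Without inguinal adipocyte replicate 3, 2 members passed in each of the comparisons with brown fat, 1 passed against inguinal fat without inguinal SVF replicate 3, and 4 passed against epididymal fat when the inguinal arrays were left out of the fit, with or without the replicate block within epididymal fat. The shares of all genes called in these fits are not reported here, so the member counts were not set against them.

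Over the 6 groups the order of levels placed brown adipocytes lowest for 8 of the 10 genes, with no overlap with the next group in the order for 6 of them (Pdgfra, Pdgfrb, Dpp4, Pi16, Thy1 and Cd24a). Over all 19217 genes brown adipocytes were lowest for 19.1%, and lowest with no such overlap for 7.32%. For Pdgfra, Pi16, Cd34 and Ly6a the 3 SVF groups took the first 3 places, and the lowest of them did not overlap the adipocyte group that came next. The share of all genes with such an order was not computed, so this is a description only. Brown and inguinal SVF did not overlap for Dpp4, Pi16, Thy1 and Icam1 (18.5% of all genes), brown and epididymal SVF for Cd34 and Cd24a (23.3%), and inguinal and epididymal SVF for Itgb1 (11.7%). Inguinal SVF was highest for Dpp4, Pi16, Thy1 and Icam1, epididymal SVF for Pdgfra, Pdgfrb, Cd34, Ly6a and Itgb1, and brown SVF for Cd24a, none of these leads being called.

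The genes whose levels ran most like those of each member were taken from all tested genes by the Pearson correlation over the 18 arrays (17 for Pdgfrb and Pi16), which share their groups, slides and scaling. Pdgfra ran closest to Ogn (r = 0.99), Serping1 (0.989) and Ndrg4 (0.987), and Pdgfrb to Arhgef17 (0.949), Ptgir (0.944) and Crispld2 (0.928). Dpp4 ran closest to Sfrp4 (0.985), Sfrp2 (0.984) and Igfbp6 (0.982), and Pi16 to Fndc1 (0.983), Pcolce2 (0.977) and Bmp7 (0.976). Cd34 ran closest to Dsel (0.974), Cnrip1 (0.972) and Rcn1 (0.969), Ly6a to Nucb2 (0.93), Cyb561 (0.914) and Fpr2 (0.906), and Thy1 to Glipr2 (0.98), Sh3bp1 (0.973) and Galnt12 (0.973). Cd24a ran close to Gm6212 (0.943) and Lpcat2 (0.942), Icam1 closest to Gem (0.907), Tnf (0.897) and Ccl4 (0.889), and Itgb1 to Rcn2 (0.963), Arhgap18 (0.939) and Tnfrsf1a (0.923). After the mean of each group was taken out, Thy1 and Cd24a still ran together (r = 0.915 over 18 arrays), as did Dpp4 and Pi16 (0.89 over 17) and Pdgfra and Cd34 (0.858 over 18), whereas Thy1 and Pdgfrb did not (-0.115 over 17).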

How the data were processed

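Total RNA was hybridised, with 1 dye, to Agilent mouse arrays of 60-base probes. The deposited scanner files hold each spot's intensity, and per the file headers the processed intensity used here was background-subtracted by Feature Extraction. The authors' deposited matrix of log2 values, whose centring is not stated, served as an alternative. From the processed intensity, log2 was taken and each array's 75th percentile subtracted; control and outlier-flagged spots were left out and spots of a probe averaged. Probes had to be well above background on all 3 arrays of a group, and the brightest probe stood for its gene. Names came from RefSeq tables by accession or symbol. Differences were fitted with limma 3.58.1 in R 4.3.3 (lmFit, eBayes, Benjamini-Hochberg), with 1 mean for each of the 6 groups. On simulated data with 200 of 19217 genes changed in brown fat, 12% of changes of 1 log2 unit and 64% of changes of 2 were recovered. Of changes of 3 and 4 units 88% and 92% were recovered, and 8 unchanged genes were called. The real brown comparison called a far larger share of genes (12.7% higher and 8.35% lower), and the simulated noise was independent between genes and arrays. The recovered shares therefore do not give the power of the real comparisons. All 10 genes are given everywhere, from each list up to 3 called genes with the largest difference, and the 3 closest genes by correlation, of which 1 is not reported here. The genes, lists and alternatives were chosen with earlier results of these data known. Alternatives were quantile normalization, normexp, filters, probes, blocks for slide, scan day and replicate number, and leaving out arrays. Normexp on the mean signal could not be run because 12 of 18 files lack that column, and the median signal took its place. The deviations of same-numbered arrays from their group means correlated above 0.1 in 17 of 45 pairs, and in all 3 pairs of the epididymal fractions, the only fractions compared for which every pair did. The block within epididymal fat and 3 further alternatives were added after seeing the data.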

Additional observations from a re-analysis of the deposited data

How the results depend on the processing

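Over all alternatives run, the 27 called member differences (of 120) gave 830 values, of which 829 kept their direction and 754 stayed past the threshold. The exception in direction was Dpp4 in brown minus epididymal adipocytes with its dim junction probe, at 0.10 against -5.24 (adjusted p = 0.923). Leaving out an array of a group not compared, or fitting only the groups compared, leaves a difference unchanged and alters only its spread. The direction of many of these values was therefore fixed beforehand, and their number is no measure of robustness. This also holds for the differences that were not called. Of 2922 values for differences that were not called, 56 passed the threshold and 118 turned sign without passing it. With the replicate block the numbers of members called were 7, 5 and 3 for the fractions of brown, inguinal and epididymal fat and changed in no comparison; within epididymal fat alone it gave 3.

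The counts that moved by over 1.5 times were as follows, with the cause not tested beyond the arrays or genes left; smaller moves, such as Ly6a gained in brown fat or Icam1 and the epididymal Cd34 lost, are named beside their values. With normexp on the median signal, which was read for 8 members, 3 were called between the inguinal fractions, 1 for brown minus inguinal SVF, 1 for inguinal minus epididymal SVF, 2 for brown minus inguinal adipocytes, 3 for brown minus epididymal adipocytes and 0 for inguinal minus epididymal adipocytes. Over all genes normexp called 3216 higher and 490 lower for inguinal minus epididymal SVF, against 11 and 46. Where a probe had to be well above background on every array, which left 7 members, the counts were 3 for the inguinal fractions, 2 for brown minus epididymal and 0 for inguinal minus epididymal adipocytes. With only the groups compared in the fit they were 0 and 6 for the inguinal and epididymal fractions, 2 and 0 for brown minus inguinal and inguinal minus epididymal adipocytes, and 4 for the difference between the brown and epididymal drops; the replicate block within epididymal fat made these 7 for the epididymal fractions and 4 for the difference of drops. Slide and scan day as fixed blocks each gave 1 for brown minus inguinal SVF, slide as a random block gave 3 for brown minus epididymal adipocytes, and the mean of a gene's probes gave 0 for inguinal minus epididymal adipocytes. Without the 2 arrays that stand apart (inguinal SVF replicate 1 and epididymal adipocyte replicate 3) they were 2 for the inguinal fractions, 3 for brown minus epididymal and 0 for inguinal minus epididymal adipocytes. Leaving out 1 array at a time gave 6 to 8, 1 to 6 and 1 to 5 called between the fractions of brown, inguinal and epididymal fat, 2 to 8, 3 to 6 and 0 to 4 between brown and inguinal, brown and epididymal, and inguinal and epididymal adipocytes, and 0 to 2 for each difference of drops that involves brown fat. Apart from the values given for normexp and for the blocked epididymal fit, the numbers of all genes called under the alternatives are not reported here. Slide and scan day as fixed blocks could not be fitted for comparisons with white adipocytes. With 3 arrays a group, signals near background, such as those of Dpp4 in brown adipocytes, give bounds only.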
